A study of Homo sapiens with 6 samples.

Results

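The genes described here encode the machinery that copies chromosomal DNA and the enzymes that supply it with nucleotides. Members were the 46 genes of a list, from the origin recognition complex to ribonucleotide reductase and the transcription factor E2f1. The list was chosen with earlier results of these data known. Members were found by exact symbol in the deposited table of 22989 genes. All 46 had a row, and all 46 passed the filter on low counts, with between 594 and 15720 counts in each library. The comparison is of 3 RNA libraries labelled LINC00115 KD with 3 labelled WT and asks which transcripts differ once this RNA is depleted. All 6 are described as paclitaxel (PTX)-resistant breast cancer stem-like cells (BCSC) of MDA-MB-231, a human line of triple-negative breast cancer. According to the study's methods, BCSC were cells sorted for high aldehyde dehydrogenase activity, and infected cells were selected with puromycin. In KD cells a short hairpin RNA (shRNA) targets the long noncoding RNA LINC00115. The study used more than 1 such shRNA and a control shRNA, and it names sh115-2 for its plot of these expression changes. The labels number the KD libraries sh115-1 to sh115-3 and call the controls WT. Neither source says whether the 3 libraries of a group came from separate cultures, so p-values measure the spread between these libraries only.

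A replication origin is first bound by the origin recognition complex, which with Cdc6 and Cdt1 loads the ring of Mcm2 to Mcm7 onto DNA, a step called licensing. In S phase Cdc45 and the GINS complex join the ring and turn it into the active helicase. Polymerase alpha with primase then starts each new strand, replication factor C loads the sliding clamp Pcna, and polymerases delta and epsilon extend the strand. Ribonucleotide reductase makes the deoxynucleotides for this synthesis. Many of these genes are transcribed at the passage from G1 to S phase under E2F factors, and they are highly expressed in dividing tumour cells.

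The libraries held between 36979221 and 38799331 counts, and counting error alone was between 0.798% and 4.10% of a member's count in a library. Genes are listed by symbols in mouse style, among them 4648 with Gm names and 1129 with Rik names. Of these, 276 reached 100 counts in every library. No member's symbol equals a human symbol as written, and 46 equal one apart from case. These names go against the human cell line of the labels, so the species of the annotation, and whether the counts are of the labelled cells, are in doubt for every value below. No row is named LINC00115, so the knockdown could not be checked in these counts and every direction rests on the labels. Of the markers of the labelled cells, Vim, Cd44 and Axl lay at 3420, 911 and 731 normalized CPM (counts per 1000000 of the scaled library total) on average in the WT libraries. Egfr, on the same list, lay at only 5.75. Of the receptors that triple-negative cells lack by definition, Pgr had at most 3 counts in any library, while Erbb2 lay at 17.0 in the WT and 27.6 in the KD libraries and Esr1 at 0.698 and 2.56. Aldh1a3, an aldehyde dehydrogenase, was close to absent, with at most 4 counts in any library.

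Promoter sequences are shown for the members with the largest changes, and for a pair of subunits of the Mcm ring that moved in opposite directions. They are the 250 bases before the start of the human gene of the same name in RefSeq (GRCh38.p14), printed 5′ to 3′ on the gene's strand. Capitals mark the E2F letters (TTTCCCGC, TTTGGCGC, TTTCGCGC or TTTGCCGC) and the CCAAT box (CCAAT), each searched on both strands. Rrm2, at chr2:10122318-10122567 on the plus strand, rose most. Pola2, at chr11:65261712-65261961 on the plus strand, fell most. Orc2 (chr2:200963661-200963910, minus strand) had the next largest rise. Mcm6 (chr2:135876444-135876693, minus strand) was higher in the KD libraries while Mcm3 (chr6:52284743-52284992, minus strand) was lower.
Rrm2: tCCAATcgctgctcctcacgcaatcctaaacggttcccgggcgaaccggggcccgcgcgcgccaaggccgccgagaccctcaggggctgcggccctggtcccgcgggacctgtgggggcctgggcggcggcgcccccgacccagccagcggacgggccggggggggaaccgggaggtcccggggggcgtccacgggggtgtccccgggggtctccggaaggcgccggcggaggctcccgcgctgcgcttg
Pola2: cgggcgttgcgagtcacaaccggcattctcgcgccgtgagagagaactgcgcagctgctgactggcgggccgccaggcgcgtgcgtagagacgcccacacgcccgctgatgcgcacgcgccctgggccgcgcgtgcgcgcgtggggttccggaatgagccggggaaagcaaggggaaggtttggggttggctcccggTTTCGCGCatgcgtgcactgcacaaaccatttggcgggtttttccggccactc
Orc2: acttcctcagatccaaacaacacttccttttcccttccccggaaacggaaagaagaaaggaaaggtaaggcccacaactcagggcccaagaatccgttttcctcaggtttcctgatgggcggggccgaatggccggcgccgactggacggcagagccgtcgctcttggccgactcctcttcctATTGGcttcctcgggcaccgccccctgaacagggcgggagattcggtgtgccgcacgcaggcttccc
Mcm6: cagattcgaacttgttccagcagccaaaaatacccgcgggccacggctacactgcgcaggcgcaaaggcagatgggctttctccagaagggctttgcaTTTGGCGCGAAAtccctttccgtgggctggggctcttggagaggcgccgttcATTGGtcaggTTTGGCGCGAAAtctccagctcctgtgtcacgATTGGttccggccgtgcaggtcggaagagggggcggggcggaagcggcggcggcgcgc
Mcm3: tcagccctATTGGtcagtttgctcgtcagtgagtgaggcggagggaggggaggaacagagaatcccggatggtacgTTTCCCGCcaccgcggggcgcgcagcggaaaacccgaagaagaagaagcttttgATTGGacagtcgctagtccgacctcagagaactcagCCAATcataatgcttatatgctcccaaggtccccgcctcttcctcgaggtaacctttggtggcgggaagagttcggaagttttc

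Over the whole RefSeq window of 300 bases, which adds 50 bases after the start, promoters of 40 of the 46 members were matched. The E2F letters were in 17 of these 40 promoters (42.5%), in 3.31% of all promoters in the RefSeq table and in 5.24% of the 8878 promoters of tested genes that could be matched. By direction, 12 of 30 promoters of members lower in the KD libraries held them, as did 3 of 7 of members higher and 2 of 3 of members that did not pass the test. In Mcm6 the letters occur 4 times in 2 stretches, since the match on one strand overlaps the match on the other. The CCAAT box was in 23 of 40 member promoters (57.5%), in 34.6% of all promoters and in 36.2% of those of tested genes. TTTGAA or TTCGAA, the letters of the cell cycle homology region of late cell cycle genes, were in 2 of 40 (5.0%), in 16.4% of all promoters and in 11.3% of those of tested genes. These are matches of letters in the reference sequence of human genes, paired with the counts by name alone, not measurements of binding.

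As shown by the differential expression test, most replication genes were modestly lower in the KD libraries. Of the 46 members, 35 (76.1%) fell and 8 (17.4%) rose past an adjusted p-value of 0.05 in edgeR's quasi-likelihood test, after Benjamini-Hochberg correction for the 13497 genes tested. Among all genes tested, 36.7% were lower and 36.7% were higher. Since the members were chosen with earlier results of these data known, these shares describe the list and are no independent test of it. The changes were small. Only Pola2 was called lower and only Rrm2 called higher once a change of over 2-fold was also required, the study's threshold, where 9.98% and 10.2% of all genes were called. A total of 38 members changed by less than 1.5-fold in either direction. The median log2 fold change (KD minus WT) was −0.22 over the members and −0.0061 over all genes tested, and the median size of a change without its sign was 0.275 and 0.453. All genes tested include some with far fewer counts than any member, and these comparisons were not matched for level. KD libraries lay below all WT libraries for 33 members and above them for 9, against 37.8% of all genes each way. Together the members took 0.558% to 0.573% of the counts in the WT libraries and 0.501% of the counts in each KD library. In bulk RNA, fewer cells that express these genes and less of their RNA per cell cannot be told apart.

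**Figure D1:**
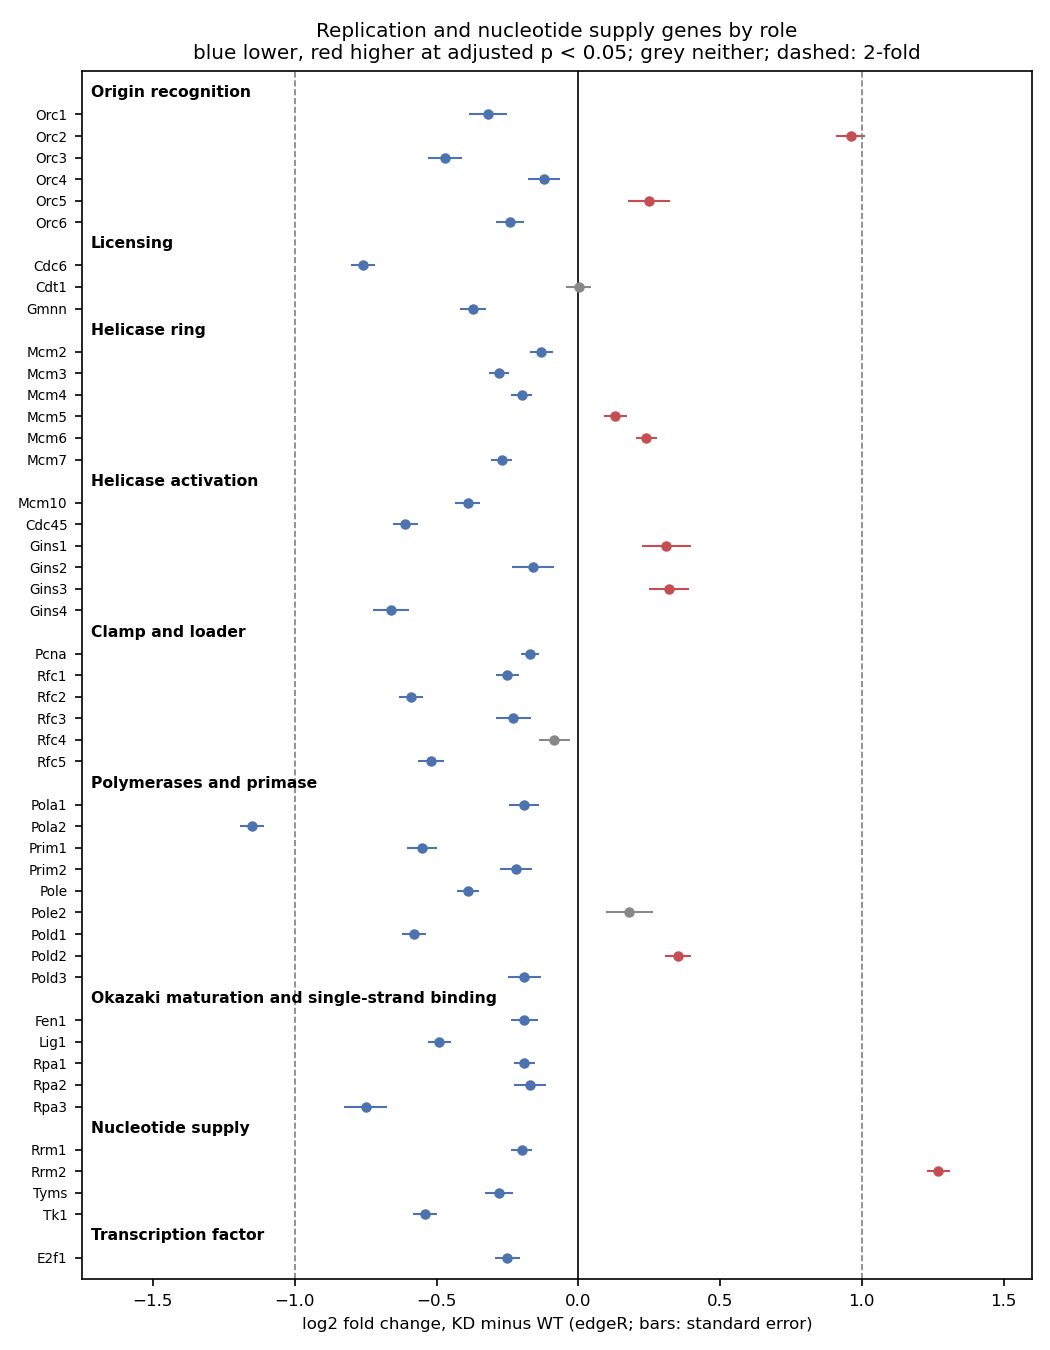
Log2 fold change (KD minus WT, x axis) of each of the 46 genes, ordered by role on the y axis, with its standard error as bars, n = 3 libraries per group. Most points lie between −0.8 and 0, Pola2 is the only one beyond the 2-fold line on the left and Rrm2 the only one beyond it on the right.

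Markers of other cell types moved with the same comparison. The lung and kidney lists hold genes that earlier results of these data had shown, so their counts were partly set by that choice. Over all genes tested, 37.8% had their KD libraries above all WT libraries and 37.8% below. All 12 lung genes of a marker list had their KD libraries above all WT libraries, with a summed level of 20.5 to 29.0 normalized CPM in the WT and 113 to 125 in the KD libraries, and 7 of them, among them Scgb1a1 and Sftpc, had no count in any WT library. Of 10 kidney genes, 8 were higher and 1 was lower by the same measure, with sums of 16.8 to 19.6 and 44.5 to 48.2. Kap, Acsm2 and Umod were at 0 in the WT libraries, as was Aqp2, which had at most 4 counts in any KD library. The 11 leukocyte genes summed to between 35.0 and 35.9 and between 99.8 and 111, most of it S100a8, with Cd3e at 0 throughout. By the same measure 4 of them were higher and 1 was lower. The 5 endothelial genes summed to at most 0.664 in the WT and at least 56.8 in the KD libraries, nearly all of it Cdh5. Emcn was at 0 in the WT libraries and had at most 1 count in a KD library. The 6 fibroblast genes summed to at least 174 in the WT and at most 78.4 in the KD libraries, nearly all of it Pdgfra. The 6 epithelial genes summed to between 599 and 609 and between 959 and 1010, nearly all of it Krt8 and Krt18. By the same measure 3 of them were higher and 0 lower. Krt14 changed by −1.55 on the log2 scale (adjusted p = 0.0159, edgeR) with overlapping groups. It had 7, 30 and 192 counts in the WT and 31, 28 and 19 in the KD libraries. Krt5 had 0, 0 and 92 counts in the WT libraries and 0 in each KD library, so WT replicate 3 held most counts of both. The 7 markers of the labelled cells summed to between 5530 and 5620 and between 5970 and 6110. Beside these, the 46 replication genes summed to between 5502 and 5708 and between 5022 and 5056. The part of other cells in the results was not tested.

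**Figure D2:**
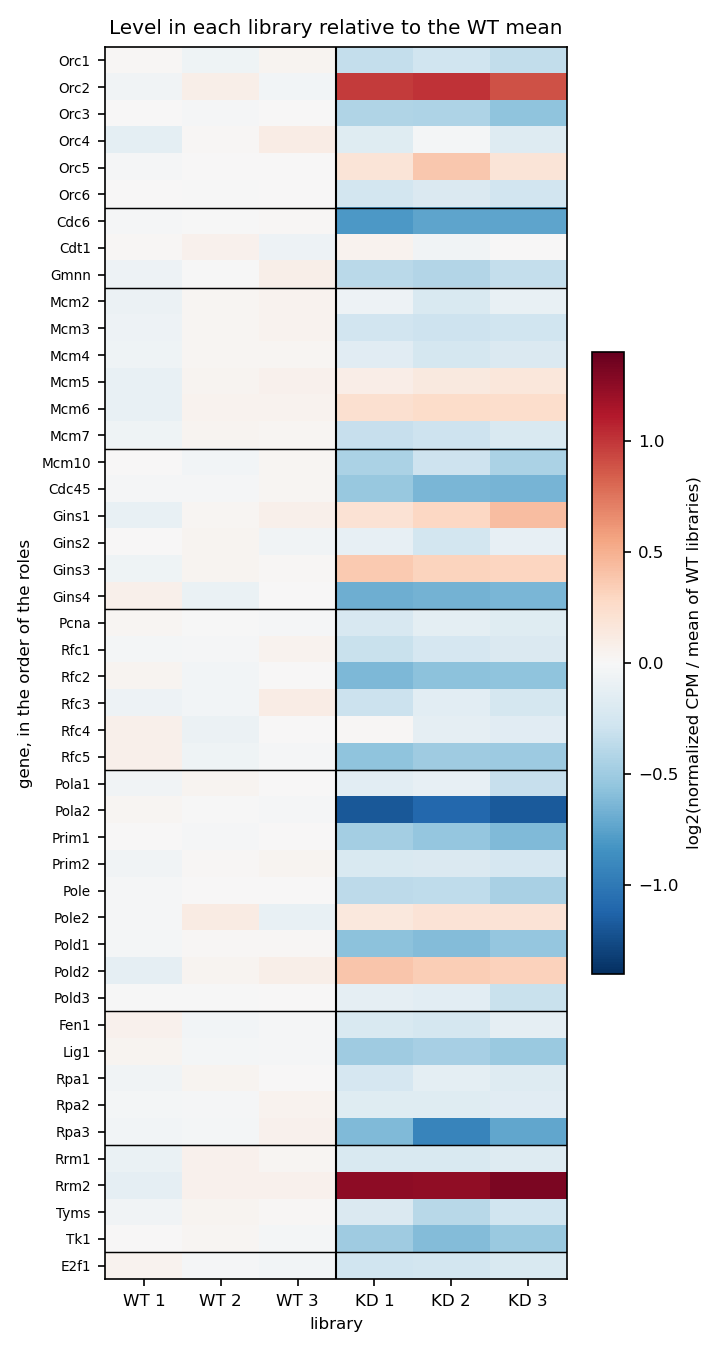
Level of each gene (rows, in the order of the roles) in each of the 6 libraries (columns), as the log2 ratio of normalized CPM to the mean of the 3 WT libraries. Rrm2 and Orc2 stand out as higher and Pola2 and Cdc6 as lower, each in all 3 KD libraries.

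Ribonucleotide reductase, whose large subunit is Rrm1 and whose small subunit in dividing cells is Rrm2, showed the largest rise. Rrm2 had 136, 155 and 155 normalized CPM in the WT libraries and 354, 352 and 371 in the KD libraries. The groups did not overlap, and each KD library lay at more than 2 times any WT library. The rise was 2.42-fold, a log2 fold change of 1.27 with a standard error (SE) of 0.041 (adjusted p = 2.70e-24, edgeR). Its partner Rrm1 moved the other way, from 341, 381 and 372 to 315, 313 and 321 normalized CPM, a log2 fold change of −0.20 (SE 0.036). Since both counts come from the same library, their ratio does not depend on how libraries are scaled. The ratio of Rrm2 to Rrm1 counts was 0.408 ± 0.00888 in the WT and 1.14 ± 0.0195 in the KD libraries (SD, n = 3 per group), 2.79 times as high. Because transcript length enters such a ratio, its size compares libraries and not the subunits.

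The other members in the nucleotide supply role were also lower, while enzymes of nucleotide synthesis outside the members, given further below, moved both ways. Thymidine kinase Tk1, which salvages thymidine, fell from 137, 139 and 134 to 96.7, 89.8 and 95.6 normalized CPM, a log2 fold change of −0.54 (SE 0.042, adjusted p = 1.51e-13, edgeR). Thymidylate synthase Tyms, which makes thymidylate from deoxyuridylate, fell from 92.5 ± 2.90 to 75.9 ± 4.90 normalized CPM (SD, n = 3 per group), a log2 fold change of −0.28. Neither gene's groups overlapped, so within this role only Rrm2 rose.

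At the origin, the 6 subunits of the origin recognition complex did not move together. Orc2 had 49.6, 54.3 and 49.9 normalized CPM in the WT libraries and 101, 104 and 95.2 in the KD libraries, with no overlap. Its log2 fold change of 0.96 (SE 0.050, adjusted p = 2.62e-18, edgeR) was just under 2-fold, and it was over 2-fold without WT replicate 2 (1.01) and reached 1.00 without KD replicate 3, where it was also called. Orc5 was higher by 0.25 on the log2 scale. In contrast, Orc3 fell from 50.7, 49.9 and 50.5 to 37.7, 37.4 and 34.0 normalized CPM, a log2 fold change of −0.47 (SE 0.059, adjusted p = 1.19e-08, edgeR). Orc1, the subunit whose protein level varies through the cell cycle, changed by −0.32 and Orc6 by −0.24. Orc4 was at the edge of the threshold, at −0.12 (adjusted p = 0.0477, edgeR) with overlapping groups, and it missed the threshold in 6 of 14 alternatives, among them those without WT replicate 2 (adjusted p = 0.111), WT replicate 3 (0.335), KD replicate 1 (0.205) or KD replicate 3 (0.221). Its change was −0.066 without WT replicate 3 and −0.19 without WT replicate 1. The ratio of Orc2 to Orc3 counts was 1.02 ± 0.0606 in the WT and 2.75 ± 0.0640 in the KD libraries (SD, n = 3 per group).

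Of the licensing factors, Cdc6, the ATPase that helps to load the ring, had the second largest fall of all members, close to that of Rpa3. It had 132, 133 and 135 normalized CPM in the WT libraries and 76.5, 80.0 and 80.1 in the KD libraries, and no KD library came near a WT library. The log2 fold change was −0.76 (SE 0.042, adjusted p = 1.68e-17, edgeR). Geminin (Gmnn), the inhibitor of Cdt1, also fell, from 105 ± 5.57 to 81.3 ± 2.14 normalized CPM (SD, n = 3 per group), a change of −0.37. Cdt1 itself had 114, 118 and 108 normalized CPM in the WT and 117, 109 and 114 in the KD libraries, a log2 difference of 0.00082 (SE 0.044, adjusted p = 0.987, edgeR), whose sign turned in 4 of 14 alternatives. The ratio of Cdt1 to Cdc6 counts was 0.849 ± 0.0430 in the WT and 1.44 ± 0.0832 in the KD libraries, and that of Cdt1 to Gmnn 1.08 ± 0.0926 and 1.39 ± 0.0418 (SD, n = 3 per group).

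The 6 subunits of the helicase ring are present in equal numbers in the assembled complex, and their transcripts split 4 to 2. Mcm3 fell from 271, 289 and 294 to 237, 233 and 235 normalized CPM, a log2 fold change of −0.28 (SE 0.036, adjusted p = 2.05e-08, edgeR). Mcm7 fell by nearly as much, from 282, 303 and 299 to 235, 241 and 255, a change of −0.27 (SE 0.037). Mcm4 had 273, 290 and 288 in the WT and 254, 240 and 247 in the KD libraries, a change of −0.20. For these 3 subunits no KD library reached a WT library. Mcm2 was lower by only 0.13 on the log2 scale (172, 185 and 187 against 172, 156 and 168 normalized CPM), with WT replicate 1 within the KD range, and it missed the threshold without KD replicate 2 (−0.08, adjusted p = 0.109, edgeR).

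Mcm6 and Mcm5 were higher. Mcm6 had 219, 242 and 243 normalized CPM in the WT and 274, 281 and 278 in the KD libraries, a log2 fold change of 0.24 (SE 0.038, adjusted p = 6.33e-07, edgeR). Mcm5 had 173, 191 and 193 in the WT and 198, 204 and 207 in the KD libraries, a change of 0.13 (SE 0.040, adjusted p = 0.005). Neither overlapped, although the gap between the groups was narrow for Mcm5, and both stayed higher past the threshold in all 14 alternatives. Without WT replicate 1 the change of Mcm5 was only 0.078, with its adjusted p just under the threshold. Within each library the ratio of Mcm6 to Mcm3 counts was 0.824 ± 0.0158 for WT and 1.18 ± 0.0239 for KD, and that of Mcm5 to Mcm3 was 0.652 ± 0.0139 and 0.864 ± 0.0241 (SD, n = 3 per group).

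**Figure D3:**
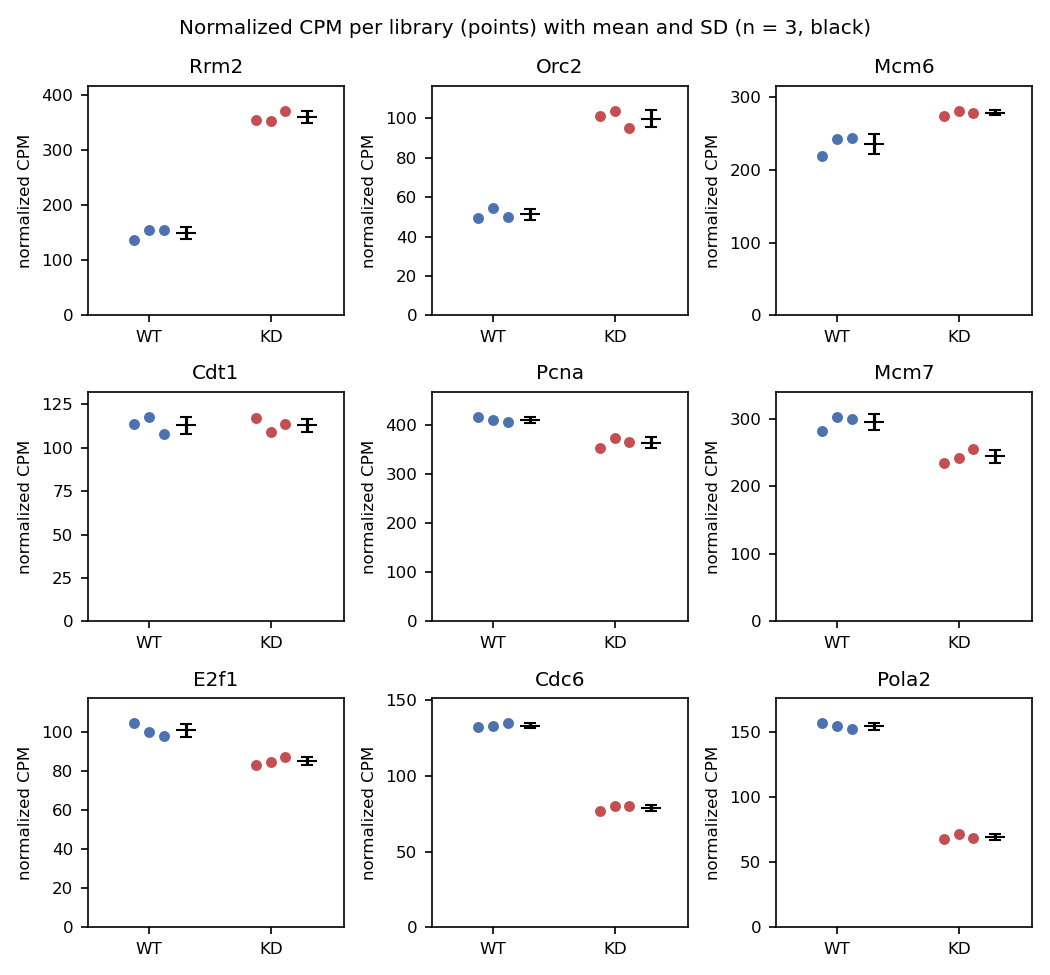
Normalized CPM (y axis, from 0) of 9 genes in each WT (blue) and KD (red) library, with the group mean and SD in black (n = 3). The KD points of Rrm2, Orc2 and Mcm6 lie above all WT points, those of Pcna, Mcm7, E2f1, Cdc6 and Pola2 lie below them, and those of Cdt1 overlap.

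The factors that activate the helicase also divided. Cdc45, which joins the ring at firing, fell from 119 ± 2.13 to 78.1 ± 3.61 normalized CPM (SD, n = 3 per group), a log2 fold change of −0.61 (SE 0.045, adjusted p = 3.24e-14, edgeR). Mcm10, which acts at the same step and is not part of the ring, changed by −0.39. Within the GINS complex of 4 subunits, Gins4 fell from 48.8, 43.5 and 46.6 to 28.9, 29.4 and 29.8 normalized CPM, a change of −0.66 (SE 0.063). Gins3 rose from 22.0, 23.5 and 23.2 to 29.5, 28.4 and 28.1, a change of 0.32 (SE 0.072, adjusted p = 0.000151, edgeR), and Gins1 rose by 0.31. Gins2 was at the edge, with −0.16 (adjusted p = 0.0488, edgeR) but no overlap, and it missed the threshold in 11 of 14 alternatives (adjusted p from 0.0509 to 0.229), including each of the 6 that left out a library. The ratio of Gins3 to Gins4 counts was 0.496 ± 0.0446 in the WT and 0.977 ± 0.0407 in the KD libraries (SD, n = 3 per group).

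The sliding clamp Pcna, which tethers the polymerases to DNA, had 417, 410 and 405 normalized CPM in the WT and 353, 374 and 365 in the KD libraries. All KD libraries lay below all WT libraries, by little, with a log2 fold change of −0.17 (SE 0.033, adjusted p = 1.73e-05, edgeR). Of the clamp loader subunits, Rfc2 fell most, from 124, 118 and 122 to 78.5, 81.5 and 81.9 normalized CPM, a change of −0.59 (SE 0.043). Rfc5 fell by 0.52, Rfc1 by 0.25 and Rfc3 by 0.23 on the log2 scale. Rfc4 did not pass the test, at −0.084 (SE 0.055, adjusted p = 0.168, edgeR), and its groups overlapped.

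Among the polymerases the largest fall was that of Pola2, the regulatory subunit of polymerase alpha. It had 157, 154 and 152 normalized CPM in the WT libraries and 68.0, 71.9 and 68.5 in the KD libraries. The groups were far apart, with a log2 fold change of −1.15 (SE 0.043, adjusted p = 1.12e-22, edgeR), which is a fall of 55.0%. The catalytic subunit Pola1, in the same complex, changed by only −0.19 and missed the threshold without KD replicate 3 (−0.12, adjusted p = 0.0520, edgeR). Of the primase subunits, Prim1, which is catalytic, changed by −0.55 and Prim2 by −0.22. The ratio of Pola2 to Pola1 counts was 2.11 ± 0.101 in the WT and 1.08 ± 0.0714 in the KD libraries (SD, n = 3 per group).

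Polymerase delta, which copies the lagging strand, divided between its subunits. Pold1, the catalytic subunit, fell from 128 ± 2.00 to 85.8 ± 1.79 normalized CPM (SD, n = 3 per group), a log2 fold change of −0.58. Pold2, the accessory subunit, rose from 92.1, 103 and 106 to 132, 128 and 126 normalized CPM, a change of 0.35 (SE 0.046, adjusted p = 2.65e-08, edgeR). Pold3 was lower by 0.19 on the log2 scale, and not past the threshold without KD replicate 3 (adjusted p = 0.0724). In polymerase epsilon, which copies the leading strand, the catalytic Pole fell by 0.39. Its partner Pole2 had a log2 difference of 0.18 that missed the threshold (SE 0.083, adjusted p = 0.0556, edgeR), although no KD library overlapped a WT library, and it passed without WT replicate 2 (adjusted p = 0.0202). The ratio of Pold2 to Pold1 counts was 0.787 ± 0.0478 in the WT and 1.5 ± 0.0530 in the KD libraries (SD, n = 3 per group).

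Maturation of the lagging strand and protection of single-stranded DNA was a role in which all members fell, 5 of 5. For comparison, 76.1% of all members and 36.7% of all genes tested were lower. Rpa3, the smallest subunit of the single-strand binding protein RPA, fell from 34.2, 34.3 and 36.6 to 22.9, 18.4 and 21.2 normalized CPM. The groups did not overlap, and the log2 fold change was −0.75 (SE 0.076, adjusted p = 1.00e-10, edgeR). The other RPA subunits moved less, with −0.19 for Rpa1 and −0.17 for Rpa2. Ligase Lig1, which seals Okazaki fragments, changed by −0.49, and Fen1, the nuclease that trims their flaps, by −0.19.

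E2f1, a transcription factor for many of these genes, had 105, 100 and 98.3 normalized CPM in the WT libraries and 83.3, 84.8 and 87.5 in the KD libraries, without overlap. Its log2 fold change was −0.25 (SE 0.045, adjusted p = 8.24e-06, edgeR). Of 18 other E2F and RB family genes and their partners, 5 were lower, 7 were higher and 6 did not pass the test, with a median log2 fold change of 0.072 and none past 2-fold. These counts are near the shares over all genes, 36.7% in each direction.

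Other genes of replication were compared by the same fit. In a list of 35 origin firing and fork factors, 17 were lower and 9 higher (median log2 fold change −0.077), against 36.7% of all genes each way. Lower genes outnumbered higher ones in this list, which was chosen with earlier results of these data known. Rnaseh1, which removes RNA from RNA-DNA hybrids, rose by 1.41 and Rnaseh2c, a subunit of RNase H2, fell by 1.25 on the log2 scale, from 5.61 ± 0.901 to 14.9 ± 0.881 and from 20.2 ± 3.04 to 8.48 ± 0.384 normalized CPM (SD, n = 3 per group). Of 11 genes listed for chromatin during replication, 7 were lower and 2 higher (median −0.24), with none past 2-fold.

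For nucleotide synthesis beyond the members, 2 lists were compared, again against 36.7% of all genes each way. Of 22 pyrimidine and folate genes, 12 were higher and 8 lower (median log2 fold change 0.20). Of 19 purine genes, 9 were higher and 5 lower (median 0.14). Both lists are short and were chosen with earlier results of these data known. Dctd, the deaminase that makes deoxyuridylate from deoxycytidylate, rose from 18.1 ± 1.18 to 39.9 ± 0.462 normalized CPM (SD, n = 3 per group), a log2 fold change of 1.14 (SE 0.071, adjusted p = 3.60e-16, edgeR). Ctps, which makes CTP from UTP, rose from 78.2 ± 7.43 to 160 ± 2.54, a change of 1.03. No gene of the purine list passed 2-fold.

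Around the cell cycle, 17 of 19 mitotic genes were lower and 1 was higher, against 36.7% of all genes each way, with a median log2 fold change of −0.53, and Bub1, a spindle checkpoint kinase, and Nusap1, a spindle protein, were past 2-fold (−1.34 and −1.02). Of 13 S-phase cyclins, kinases and their inhibitors tested, 9 were lower and 3 higher (median −0.24). The CDK inhibitors Cdkn1a and Cdkn1b were among the lower genes, at 257 ± 20.8 against 65.9 ± 2.49 and at 92.5 ± 2.05 against 31.8 ± 2.99 normalized CPM (SD, n = 3 per group), log2 fold changes of −1.97 and −1.54. Ccnd2 rose by 3.19 on the log2 scale, but only to 0.670 ± 0.0590 normalized CPM. The other higher genes were Ccnd1, at 1320 ± 67.0 against 1730 ± 41.0 normalized CPM (SD, n = 3 per group), and Ccne1. Their log2 fold changes were 0.39 and 0.17.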

How the data were processed

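RNA of 3 LINC00115 KD and 3 WT libraries was analysed. According to the study's methods, adapters were trimmed and reads mapped with HISAT2 to hg19, while the submitters' processing notes name HISAT2, featureCounts, DESeq2 and hg38. Neither the gene annotation nor strand use is given in the sources used here, so reads of overlapping genes and of related copies may be split in unknown ways. The authors deposited whole-number read counts for 22989 genes without normalization. Columns were assigned by the sample descriptions, and columns of values not used number 0. Library totals were 36979221 to 38799331 counts, and errors of counting cover sampling only.

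Low genes were removed with filterByExpr (count at least 10, total at least 15), libraries were scaled by TMM and genes were tested with edgeR 4.0.16 in R 4.3.3 by the quasi-likelihood test, group only, with Benjamini-Hochberg adjustment over 13497 genes. An SE is the absolute log2 fold change over the root of the F statistic. Normalized CPM use the TMM-scaled totals. Scaling in the test used the genes kept, and the pipeline was tested on simulated counts. The members and lists were chosen with earlier results of these data known. Values of all libraries are given for members past 2-fold, Mcm2 to Mcm7, Pcna, E2f1 and the largest change each way within a role, and Rrm1 and Cdt1 were added after their values were seen. Of the other pathway genes, those past 2-fold are named, and Ccnd1 and Ccne1 were added after their values were seen. Alternatives were other scalings, filters and tests (DESeq2 1.42.0, limma 3.58.1), the replicate number as a block and each library left out. Same-numbered KD and WT libraries did not deviate together over the genes tested (correlations 0.00411, −0.0178 and −0.0175).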

Additional observations from a re-analysis of the deposited data

How the results depend on the processing

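Over 14 alternatives, 38 members (30 lower and 8 higher) kept their direction and an adjusted p-value under 0.05 in each. Members lower numbered between 31 and 36 and members higher between 8 and 9, with 1 member called lower throughout. With each library left out, 1 to 2 members were called higher, the second being Orc2, and the median log2 fold change of the members ranged from −0.24 to −0.20. It was −0.26 with upper quartile scaling and −0.24 with library totals alone, and those scalings moved the median of all genes to −0.047 and −0.026. Cdt1 turned sign with upper quartile scaling (−0.04), with library totals alone (−0.019), without WT replicate 3 (−0.031) and without KD replicate 1 (−0.016), never past the threshold, and ranged from −0.031 to 0.036 with each library left out. Rfc4 passed with upper quartile scaling (adjusted p = 0.0455, edgeR's quasi-likelihood test) and Pole2 with DESeq2's size factors (0.047), and the cause was not tested. With the replicate block 34 members were lower and 8 higher. Same-numbered libraries share only a number, and Gins2 missed the threshold under the block (adjusted p = 0.0537). The counts of the other gene lists stayed within 1.5 times in 196 of 196 comparisons. The least counted members, at 594 counts and more, have the larger errors, so that Pole2 at 0.18 (SE 0.083) missed the threshold while Pcna at −0.17 (SE 0.033) passed it.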
